A study of Mus musculus with 18 samples.

Results

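The 12 libraries labelled as infarcted mouse hearts were divided into sides chosen by the measured level of 1 gene, Acadm, 8 with less than 400 FPKM, called low-Acadm here, and 4 with at least 400 FPKM, called high-Acadm. These are 12 of 18 libraries in all, and the other 6 came from sham-operated hearts. All came from C57BL/6 mice, an inbred laboratory strain, and from the apex of the heart, taken 1 day after the operation. Of the infarcted hearts (MI, myocardial infarction), 6 were from mice given DCA at 10 mg/kg per day and 6 from mice given vehicle, and the sham hearts were from mice given vehicle. DCA is not spelled out in the labels and is read here as deoxycholic acid, a bile acid, because the series title names it with the bile acid receptor TGR5. The low-Acadm libraries were 3 with DCA and 5 with vehicle, and the high-Acadm libraries were 3 with DCA and 1 with vehicle. The labels give no infarct size, no age and no time of day of collection, and they do not say how much of each apex was infarcted or whether every library stands for its own mouse. P-values therefore measure the spread between these samples, and whether the split follows the extent of injury was not tested. Replicate numbers are those of the sample titles.

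Heart muscle takes most of its energy from burning fatty acids in mitochondria. Acadm encodes medium-chain acyl-CoA dehydrogenase, an enzyme of that pathway, and its transcript is abundant in cardiomyocytes. After a coronary artery is closed, muscle cells in its territory die, muscle cells next to the damage express natriuretic peptides and other stress genes, and neutrophils and monocytes enter the tissue. The gene lists described below stand for these processes. Both sides of the split were set with a readout, so differences between them are described by values, medians and overlap and carry no test. The tests given compare groups that the labels define. Values are FPKM, reads scaled by transcript length and library size, as the authors deposited them. In bulk tissue, fewer cells of a type and less RNA per cell cannot be told apart.

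Acadm (gene ID 11364, GRCm38.p6 chromosome 3, 153922353 to 153944643) was at 141, 188, 196, 208, 252, 293, 312 and 375 FPKM in the low-Acadm libraries, at 436, 501, 510.0 and 521 FPKM in the high-Acadm libraries, and at 536 to 679.7 FPKM (median 587) in the sham libraries. Values of single high-Acadm libraries are given throughout in this order of Acadm, which is DCA replicates 5, 3 and 1 and vehicle replicate 4. As a share of the sham median, these were 24.0% to 63.8% in the low-Acadm and 74.3% to 88.7% in the high-Acadm libraries. All 12 MI libraries lay below all 6 sham libraries. The library just below the threshold was DCA replicate 4 with 375 FPKM, and the one just above it was DCA replicate 5 with 436 FPKM. The gap between them, 61.8 FPKM, was no wider than the gaps on either side of it, 62.6 and 64.4 FPKM, so the threshold divides a continuous run of values and not 2 separate clusters. By treatment, Acadm averaged 380.3 ± 127 FPKM in MI hearts with DCA and 275 ± 137 FPKM in MI hearts with vehicle (SD, n = 6 each; two-sided exact permutation test on the log2 scale, difference 0.52, p = 0.167). A two-sided Fisher's exact test of treatment against side gave p = 0.545.

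**Figure D1:**
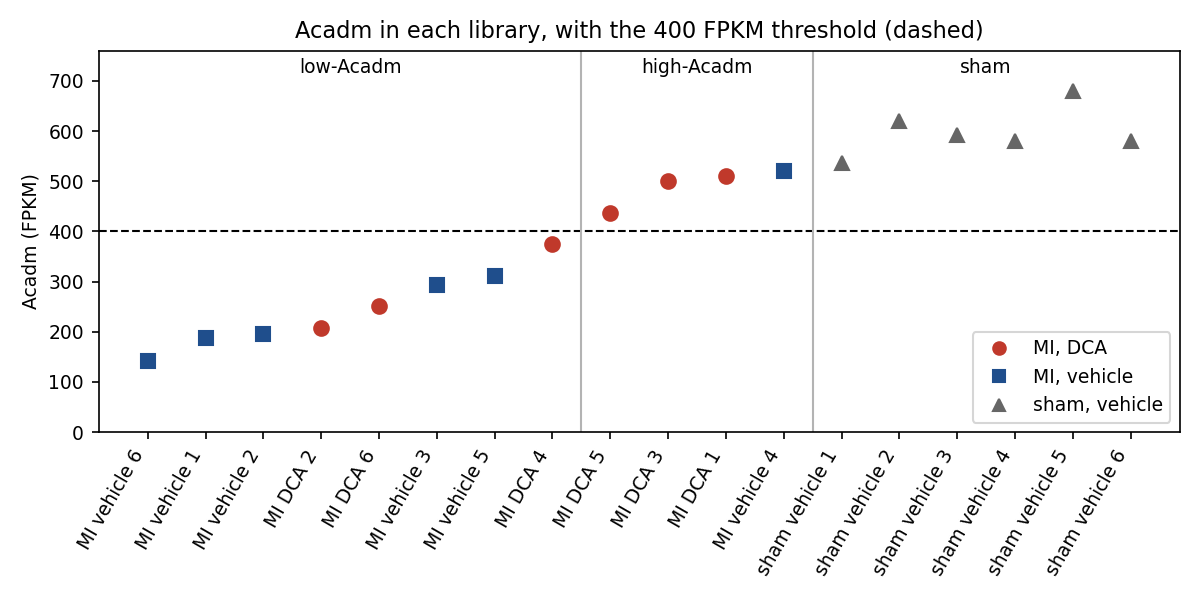
Acadm level (FPKM, vertical axis) in each of the 18 libraries, with the 8 low-Acadm libraries on the left, the 4 high-Acadm libraries in the middle and the 6 sham libraries on the right; each point is 1 library and its colour and shape give the labelled group. The MI libraries run without a break from 141 to 521 FPKM across the dashed line at 400 FPKM, and all lie below the lowest sham library at 536 FPKM.

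Reads per library, estimated from the size of the steps between low values, came to between 11300000 and 13900000 in the low-Acadm, 10000000 and 11200000 in the high-Acadm and 9600000 and 10600000 in the sham libraries, so depth moved with the split, and its part in the results was not tested. Between 15730 and 16229 genes had a value above 0 in each library. Of 19197 genes, 12461 had at least 1 FPKM in at least 4 of the 18 libraries and were compared; 184 of them passed only through low-Acadm libraries. Defining markers of cardiomyocytes were abundant in all 18 libraries, with Tnnt2, cardiac troponin T, 4951 to 8428 FPKM in the low-Acadm libraries, 8543 to 9596 FPKM in the high-Acadm libraries and 7804 to 8163 FPKM in the sham libraries. The receptor gene Gpbar1, which encodes TGR5, did not pass the filter, with 0.08 to 0.82 FPKM in the low-Acadm, 0 to 0.20 FPKM in the high-Acadm and 0 to 0.20 FPKM in the sham libraries.

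Genes of cardiomyocyte stress, early response, matrix remodelling and protein synthesis were higher in the low-Acadm libraries, and genes of fatty acid oxidation, mitochondria, ion handling and resting fibroblasts were lower. Interferon-stimulated genes were raised against sham on both sides of the split. Of the 12461 genes, 2286 (18.3%) were higher in all 8 low-Acadm than in all 4 high-Acadm libraries and 1721 (13.8%) were lower in all 8. Together 4007 genes (32.2%) did not overlap, and the median difference over all genes was 0.07 on the log2(FPKM + 1) scale on which every difference below is given. Because Acadm chose the sides, these counts only describe the split. The list counts below are to be set beside these shares of all genes. Without the 184 genes that passed the filter only through low-Acadm libraries, 2215 of 12277 genes were higher and 1721 lower. Leaving out 1 library moved the higher count most for DCA replicate 4, to 2995, and the lower count most for vehicle replicate 5, to 2063. With the threshold moved to 300 FPKM, which put 6 libraries on each side, only 942 of the 2286 higher genes and 396 of the 1721 lower genes still lacked overlap.

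Infarction itself was tested over the labelled groups. With all 12 MI against 6 sham libraries, 4383 genes (35.2%) rose and 2302 (18.5%) fell (limma on log2(FPKM + 1), Benjamini-Hochberg adjusted p under 0.05). Of these calls, 65.6% were rises; scaling each library by the median ratio gave 3311 rises and 3251 falls (50.5% rises), and quantile normalization, which moved the median fold change of all genes from 0.09 to -0.02, gave 3119 and 3558 (46.7%). With MI hearts given vehicle alone against sham, 4827 genes rose and 2468 fell. With MI hearts given DCA alone against sham, 1936 genes rose and 998 fell. Of the DCA libraries 3 were low-Acadm and 3 high-Acadm, and of the vehicle libraries 5 and 1. Counts with DCA alone below therefore differ from the full ones in sample number, treatment and share of high-Acadm libraries, whose parts were not tested. Setting DCA against vehicle within MI called 0 genes (limma, lowest adjusted p = 0.147), with 1896 genes at an unadjusted p under 0.05.

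Genes called in MI against sham were also counted by overlap across the split, to be set beside 18.3% of all genes higher and 13.8% lower. Both counts use the same MI values. A single library can make a gene overlap, so overlap does not show that a gene is independent of the split. Of the 4383 genes that rose, 1893 (43.2%) were higher in every low-Acadm than in every high-Acadm library, 3 were lower and 2487 (56.7%) overlapped. Of the 2302 that fell, 1239 (53.8%) were lower in every low-Acadm library, 0 were higher and 1063 (46.2%) overlapped. Seen from the sham hearts, the low-Acadm libraries all lay above the sham range for 2843 genes (22.8%) and below it for 1560 (12.5%). The high-Acadm libraries all lay above it for 894 (7.17%) and below it for 272 (2.18%). In 639 genes (5.13%) all 12 MI libraries were above the sham range, and in 203 (1.63%) all were below it. A range over 4 libraries is narrower than one over 8, so the counts of the 2 sides are not on an equal footing.

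**Figure D2:**
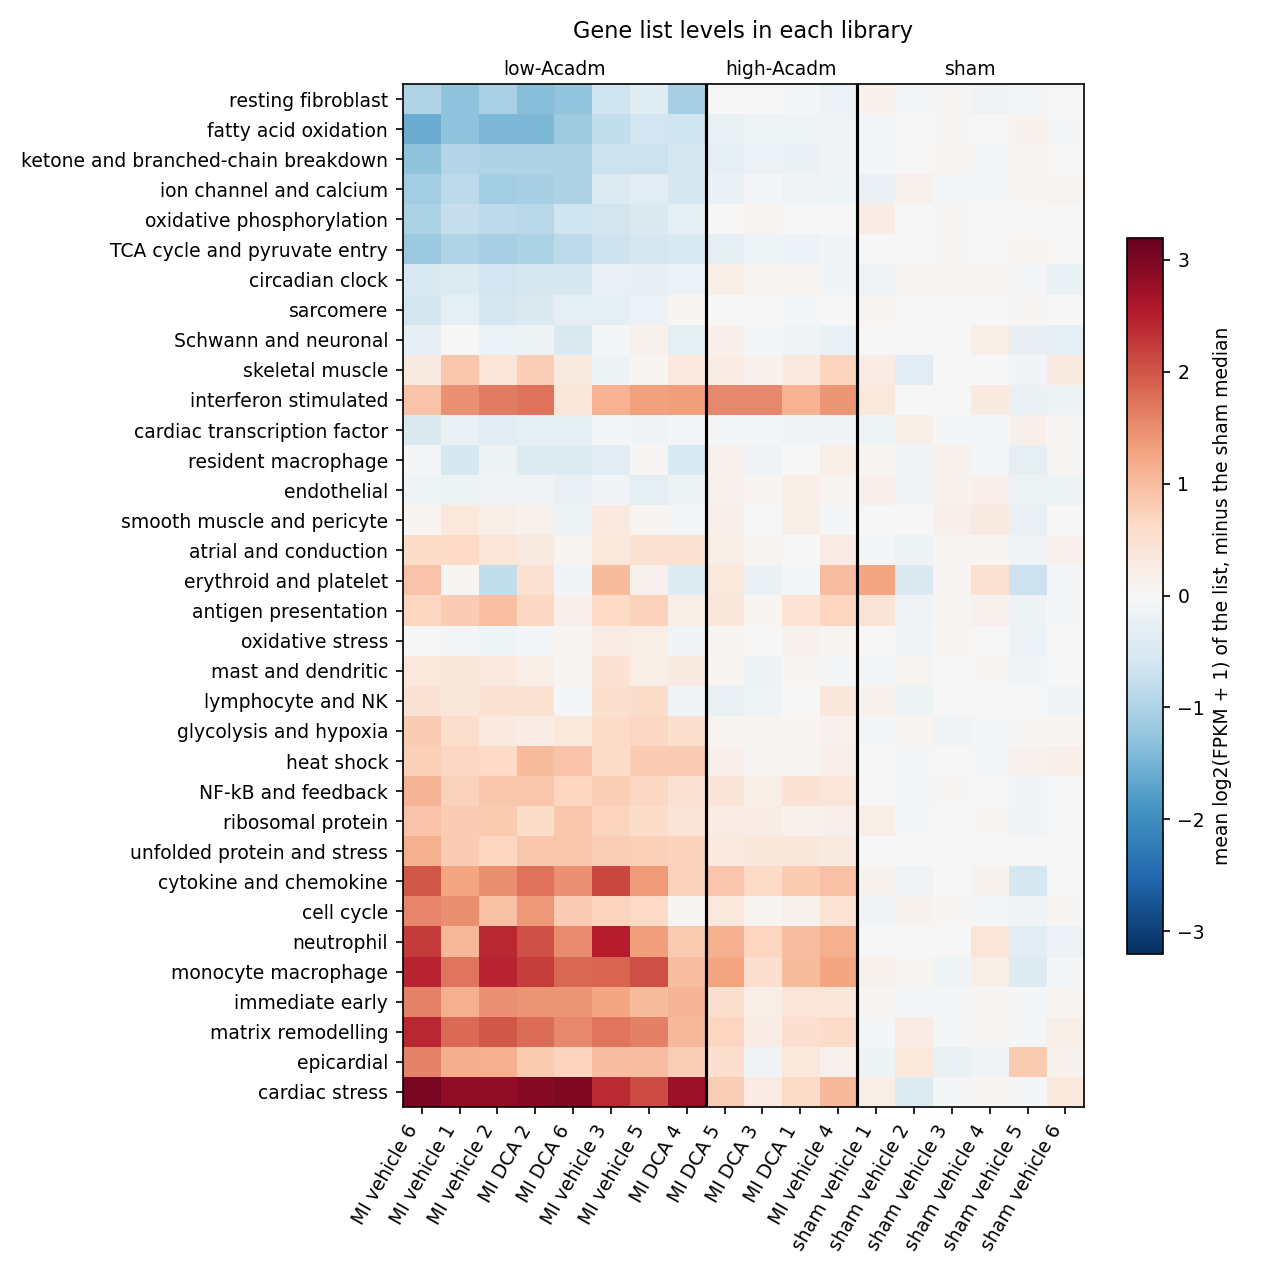
Heat map of 34 gene lists with at least 3 genes past the filter (rows) in the 18 libraries (columns, in order of rising Acadm among the MI libraries, then sham); colour gives the mean log2(FPKM + 1) of the list minus the median of the sham libraries. The metabolic lists at the top are lowest in the low-Acadm libraries, the cardiac stress list at the bottom is highest there, and the row of interferon-stimulated genes is raised on both sides.

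Fatty acid oxidation is the list Acadm belongs to. Of its 25 genes, 23 were lower in all low-Acadm libraries and 0 were higher, the median difference being -1.02, and of the 24 without Acadm, 22 were lower, with the same median. Against sham the median was -1.16 in the low-Acadm and -0.16 in the high-Acadm libraries, and all 25 genes fell in MI against sham by the limma test, against 14 when MI hearts given DCA alone were set against sham. Fabp3, the fatty acid binding protein of heart muscle (GRCm38.p6 chromosome 4, 130308738 to 130315463), had 1105 to 3463 FPKM (median 1935) in the low-Acadm libraries, 4463, 4914, 5101 and 5103 FPKM in the high-Acadm libraries and 4645 to 5690.1 FPKM (median 5013) in the sham libraries. Its high-Acadm values were thus inside the sham range, whereas every low-Acadm value was below it. Cpt2, which finishes the transfer of fatty acids into mitochondria, spanned 39.8 to 95.9 FPKM around a median of 50.4 in the 8 low-Acadm libraries, against 116, 136, 129.8 and 140.5 FPKM in the 4 high-Acadm libraries and 145 to 167 FPKM (median 149) in sham. Here the high-Acadm libraries too lay below every sham library, and Cpt2 fell in MI against sham (log2 fold change -1.02 ± 0.27 SE, limma adjusted p = 0.0055). Slc27a1, a fatty acid transporter, was the most abundant of the 2 members that overlapped: vehicle replicate 5, with 95.8 FPKM, lay above all high-Acadm values.

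The other mitochondrial lists followed the same order. In the electron transport and ATP synthase list, 29 of 30 genes were lower in all low-Acadm libraries, with a median difference of -0.70, and 26 fell in MI against sham, but only 4 with MI hearts given DCA alone. The median of the high-Acadm libraries, -0.02 against sham, was close to 0, and none of the 30 genes lay outside the sham range in all 4 of them. Cox8b and Cox7a1, muscle forms of cytochrome oxidase subunits, had the largest differences, -1.13 and -1.11. Cox8b was measured at 455 to 772 FPKM (median 537) on the low-Acadm side and at 1174, 1134, 1338 and 1182 FPKM on the high-Acadm side, with 962 to 1691 FPKM (median 1110.4) in the sham hearts. Cox7a1 reached 752 FPKM in the median low-Acadm library (lowest 578, highest 887), 1514, 1501, 1732 and 1767 FPKM in the high-Acadm libraries and 1479.6 FPKM in the median sham library (lowest 1401, highest 2614). For both genes the high-Acadm libraries sat among the sham libraries. Of the 20 genes of the citric acid cycle and pyruvate entry, 16 were lower and all 20 fell in MI against sham, 11 with DCA alone. Pdk2, a kinase that restrains pyruvate dehydrogenase, was at 91.04 to 181 FPKM in the low-Acadm libraries, 296 to 329 FPKM in the high-Acadm libraries and 314 to 406 FPKM in the sham libraries. Of the 18 genes of ketone and branched-chain amino acid breakdown, 16 were lower. Bckdha, a subunit of the branched-chain ketoacid dehydrogenase, was at 62.3 to 126 FPKM in the low-Acadm libraries against 175 to 189.7 FPKM in the high-Acadm libraries.

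By mean log2(FPKM + 1) of the fatty acid oxidation list without Acadm, vehicle replicate 6 was lowest of the 12 MI libraries and vehicle replicate 4 highest, as for Acadm. Scores ran from 6.89 to 7.85 in the low-Acadm, 8.21 to 8.34 in the high-Acadm and 8.41 to 8.55 in the sham libraries. Within MI hearts given DCA alone, 3 low-Acadm against 3 high-Acadm, the median difference of the list with Acadm was -0.94, and within vehicle alone, 5 against 1, it was -1.11.

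**Figure D3:**
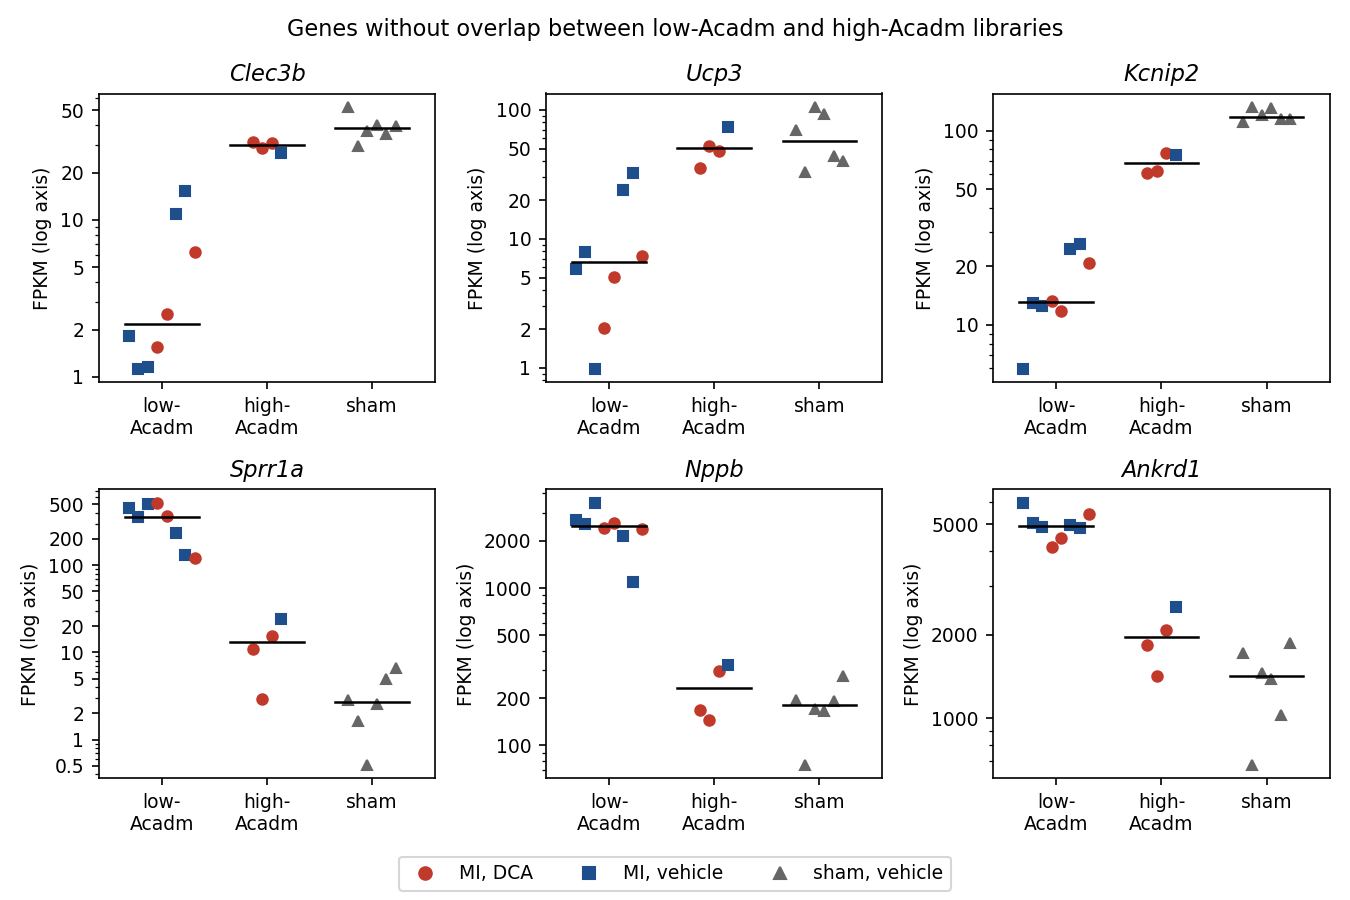
FPKM on a log axis for 3 genes lower (Clec3b, Ucp3, Kcnip2) and 3 higher (Sprr1a, Nppb, Ankrd1) in low-Acadm than in high-Acadm libraries; each point is 1 library, colour and shape give the labelled group, and the line is the median of each column. In Clec3b and Ucp3 the low-Acadm libraries are themselves spread, and in Kcnip2 the high-Acadm libraries lie between the low-Acadm and the sham libraries.

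The steepest differences downward were in genes of several cell types. Clec3b, tetranectin, a secreted protein of resting fibroblasts (GRCm38.p6 chromosome 9, 123150946 to 123157432), had 1.12 to 15.4 FPKM (median 2.18) in the low-Acadm libraries, 31.3, 28.7, 31.2 and 26.7 FPKM in the high-Acadm libraries and 29.7 to 52.8 FPKM (median 38.3) in the sham libraries. Among the low-Acadm libraries the 5 with the least Acadm had 1.12 to 2.53 FPKM and the 3 nearest the threshold had 6.23 to 15.4 FPKM. Clec3b fell in MI against sham (log2 fold change -2.22 ± 0.63 SE, limma adjusted p = 0.00776). Ucp3, a mitochondrial carrier that fatty acids induce, spanned 0.98 to 32.1 FPKM around a median of 6.62 in the 8 low-Acadm libraries, against 35.1, 52.6, 48.2 and 73.4 FPKM in the 4 high-Acadm libraries and 33.04 to 106 FPKM (median 56.9) in sham, with the 3 libraries nearest the threshold again the highest of the low-Acadm side except that vehicle replicate 1 passed DCA replicate 4. Kcnip2, the subunit that forms the transient outward potassium current with Kv4 channels, was measured at 5.91 to 26.1 FPKM (median 13.1) on the low-Acadm side and at 60.7, 61.7, 76.3 and 75.2 FPKM on the high-Acadm side, with 110.4 to 133 FPKM (median 118) in the sham hearts. It left the sham range on both sides and fell in MI against sham (log2 fold change -2.24 ± 0.44 SE, limma adjusted p = 0.00112).

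The other genes with the largest differences downward among those averaging at least 10 FPKM in MI were Lgals4, a galectin (-3.27), Htra3, a secreted serine protease (-2.68), Asb14, a muscle protein with ankyrin repeats (-2.64), Art1, an ADP-ribosyltransferase of striated muscle (-2.17), and Dbp, a transcription factor of the circadian output (-2.14). Lgals4, Htra3 and Asb14 fell in MI against sham (limma adjusted p = 0.011, 0.0129 and 0.00662). With MI hearts given DCA alone, Lgals4 and Htra3 did not pass (limma adjusted p = 0.0879 and 0.0929). Art1 and Dbp did not pass with all 12 MI libraries against sham (limma adjusted p = 0.0652 and 0.127). Dbp reached 27.3 FPKM in the median low-Acadm library (lowest 11.6, highest 42.5), 118, 116, 114 and 111 FPKM in the high-Acadm libraries and 88.4 FPKM in the median sham library (lowest 39.3, highest 114), so that 3 of the 4 high-Acadm values lay above all sham values. The other clock genes followed in part: 8 of 17 were lower and 3 higher in the low-Acadm libraries. Hlf, a factor related to Dbp, was at 1.47 to 5.30 FPKM in the low-Acadm libraries against 6.66 to 9.89 FPKM in the high-Acadm libraries. These transcripts change through the day, and the time of collection cannot be told apart from the split.

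Cardiac stress genes were the list with the largest median difference, 2.24. Of its 20 genes, 15 were higher in all low-Acadm libraries, 0 were lower, and 19 rose in MI against sham. The median against sham was 2.72 in the low-Acadm and 0.47 in the high-Acadm libraries, and only 3 of the 20 lay above the sham range in all high-Acadm libraries. Sprr1a, a small proline-rich protein induced in strained muscle (GRCm38.p6 chromosome 3, 92483954 to 92485881), had 119 to 522 FPKM (median 361) in the low-Acadm libraries, 11.1, 2.95, 15.4 and 23.8 FPKM in the high-Acadm libraries and 0.51 to 6.54 FPKM (median 2.69) in the sham libraries. DCA replicate 3, with 2.95 FPKM, was inside the sham range, and the 3 low-Acadm libraries nearest the threshold had the lowest values of their side. Sprr1a rose in MI against sham (log2 fold change 4.78 ± 0.90 SE, limma adjusted p = 0.000898). Nmrk2, a muscle kinase that makes a precursor of NAD, spanned 191 to 646 FPKM around a median of 387 in the 8 low-Acadm libraries, against 14.4, 23.7, 11.9 and 47.3 FPKM in the 4 high-Acadm libraries and 5.29 to 10.9 FPKM (median 7.61) in sham, so that all 12 MI libraries lay above the sham range. Ankrd2, a stretch-responsive muscle protein, was measured at 15.9 to 134 FPKM (median 73.5) on the low-Acadm side and at 15.9, 1.37, 2.42 and 6.20 FPKM on the high-Acadm side, with 0.38 to 1.77 FPKM (median 0.92) in the sham hearts. The sides nearly met: DCA replicate 5, the high-Acadm library nearest the threshold, had 15.92 FPKM and vehicle replicate 5 had 15.93 FPKM.

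Outside the list, Hbegf, a membrane-bound growth factor, was at 51.4 to 178 FPKM in the low-Acadm libraries, 8.27 to 12.2 FPKM in the high-Acadm libraries and 8.47 to 10.4 FPKM in the sham libraries. AA467197, a gene named here by its symbol only, was at 20.8 to 47.7 FPKM in the low-Acadm libraries, 1.07 to 2.48 FPKM in the high-Acadm libraries and 0.32 to 1.0 FPKM in the sham libraries.

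The natriuretic peptide genes behaved alike. Nppb, which encodes the brain natriuretic peptide (GRCm38.p6 chromosome 4, 147985786 to 147987205), reached 2484 FPKM in the median low-Acadm library (lowest 1102, highest 3499.5), 167, 144, 299 and 324 FPKM in the high-Acadm libraries and 181 FPKM in the median sham library (lowest 74.98, highest 277). Vehicle replicate 5 was the lowest of the low-Acadm libraries, and DCA replicates 5 and 3 lay inside the sham range. Nppa, which encodes the atrial peptide, had 2527 to 7037 FPKM (median 3057) in the low-Acadm libraries, 656, 483, 375 and 771 FPKM in the high-Acadm libraries and 136 to 440.1 FPKM (median 398) in the sham libraries. Ankrd1, a nuclear and sarcomeric protein of stressed cardiomyocytes, spanned 4139 to 5968 FPKM around a median of 4906 in the 8 low-Acadm libraries, against 1834, 1417, 2078 and 2516 FPKM in the 4 high-Acadm libraries and 679 to 1863 FPKM (median 1424) in sham. Its low-Acadm values did not follow Acadm: DCA replicate 4, the highest in Acadm of the 8, was the second highest in Ankrd1. All 3 rose in MI against sham, Nppb by 2.66 ± 0.65, Nppa by 2.66 ± 0.51 and Ankrd1 by 1.48 ± 0.29 (log2 fold change ± SE, limma adjusted p = 0.00373, 0.000945 and 0.000998). With MI hearts given DCA alone against sham, Nppb did not pass (limma adjusted p = 0.0638). The exceptions in the list were Mt1, a metallothionein, Mt2, Clu, Acta1 and Myh7, which overlapped. Clu, clusterin, was at 704 to 1768 FPKM in the low-Acadm libraries, 793 to 1086 FPKM in the high-Acadm libraries and 531 to 882 FPKM in the sham libraries.

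The upstream regions of Nppb and Ankrd1 are shown because both genes separate the sides and both hold the letters of an MCAT element, CATTCC, which TEAD factors are known to bind in muscle genes. The 250 bases before a start listed for each gene are from RefSeq, GRCm38.p6, written 5′ to 3′ on the gene's strand, with matches on either strand in capitals. GGAATG is the element read on the other strand.
Nppb, chr4:147985650-147985899, plus strand: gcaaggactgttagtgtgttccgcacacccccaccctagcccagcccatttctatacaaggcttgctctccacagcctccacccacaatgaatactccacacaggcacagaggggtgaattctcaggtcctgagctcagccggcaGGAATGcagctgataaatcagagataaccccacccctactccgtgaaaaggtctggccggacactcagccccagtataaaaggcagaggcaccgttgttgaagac
Ankrd1, chr19:36119845-36120094, minus strand: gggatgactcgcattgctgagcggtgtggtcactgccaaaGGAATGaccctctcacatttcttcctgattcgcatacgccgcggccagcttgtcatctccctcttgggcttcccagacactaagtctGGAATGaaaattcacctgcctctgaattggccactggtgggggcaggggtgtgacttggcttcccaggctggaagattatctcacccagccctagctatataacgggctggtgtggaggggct
Nppb holds 1 match and Ankrd1 holds 2, which do not overlap. The start used for Nppb lies downstream of the first base of its gene coordinates given above. The window therefore reaches into those coordinates, and its match lies inside them. The element was found in 7 of the 18 cardiac stress genes with a promoter in the table (38.9%) and in 3 of 21 interferon-stimulated genes (14.3%). It was found in 12.9% of 9927 genes past the filter, as these list members are, and in 14.4% of all 27025 genes. A match describes letters and not a bound site.

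Sarcomere genes did not move as 1 block. Of 22, 11 were lower and 3 higher in all low-Acadm libraries, and in MI against sham 13 fell and 4 rose, against 6 and 2 with DCA alone. Myh6, the main myosin heavy chain of the adult mouse ventricle, was measured at 1286 to 2733 FPKM (median 1555) on the low-Acadm side and at 3428, 4428, 3645 and 3771 FPKM on the high-Acadm side, with 4032 to 4668 FPKM (median 4489) in the sham hearts. It fell in MI against sham (log2 fold change -1.02 ± 0.26 SE, limma adjusted p = 0.00472). Tcap, telethonin, a cap protein of titin, had the largest difference of the list, -2.01, with 188 to 712 FPKM in the low-Acadm libraries against 1141 to 1530.1 FPKM in the high-Acadm libraries. Its call as a fall in MI (limma adjusted p = 0.0301) was lost when genes of low level were kept in the test (limma adjusted p = 0.0543) and with MI hearts given DCA alone (limma adjusted p = 0.159). In the other direction went Cryab, a small heat shock protein that protects desmin, which reached 7692 FPKM in the median low-Acadm library (lowest 5025, highest 10841), 4239, 2509, 2589 and 2772 FPKM in the high-Acadm libraries and 2097 FPKM in the median sham library (lowest 1987, highest 2324), and the intermediate filament gene Des, at 1909.9 to 3973 FPKM in the low-Acadm libraries against 1067 to 1538 FPKM in the high-Acadm libraries. Tpm1, tropomyosin, overlapped, with 7513 to 10913 FPKM in the low-Acadm libraries and 9366 to 10920.4 FPKM in the high-Acadm libraries. Tnnt2 did not pass in MI against sham (adjusted p = 0.327), although its low-Acadm values lay below all high-Acadm values and the high-Acadm values lay above all sham values.

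Ion handling genes were mostly lower. Of 22 past the filter, 12 were lower and 1 was higher in the low-Acadm libraries, with a median difference of -0.72. Kcnj3, a subunit of the acetylcholine-gated potassium channel, had 1.82 to 10.8 FPKM (median 3.99) in the low-Acadm libraries, 18.5, 19.1, 16.6 and 14.7 FPKM in the high-Acadm libraries and 13.4 to 23.4 FPKM (median 17.5) in the sham libraries. Atp2a2, the calcium pump of the sarcoplasmic reticulum, was at 821 to 2030.1 FPKM in the low-Acadm libraries and 1816 to 2556 FPKM in the high-Acadm libraries, and overlapped only through vehicle replicate 5 at 2030 FPKM, which passed DCA replicate 5 at 1816 FPKM. Among 17 cardiac transcription factors, 5 were lower and 2 higher. Klf15, a regulator of metabolic genes, was at 2.79 to 11.8 FPKM in the low-Acadm libraries and 13.4 to 20.2 FPKM in the high-Acadm libraries, whereas Nkx2-5, a factor of cardiomyocyte identity, overlapped with 47.3 to 73.1 FPKM in the low-Acadm libraries and 52.04 to 66.8 FPKM in the high-Acadm libraries.

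Heat shock, early response and unfolded protein genes were higher in the low-Acadm libraries. Of 16 heat shock genes, 8 were higher and 0 lower. Hspb1, a small heat shock protein, spanned 890.1 to 3906 FPKM around a median of 2745 in the 8 low-Acadm libraries, against 490.5, 285, 315 and 525 FPKM in the 4 high-Acadm libraries and 183 to 287 FPKM (median 237) in sham. Hspb6, its relative, was alike on both sides, with medians of 1700.1 and 1686 FPKM. Of 20 early response genes, 11 were higher and 0 lower, the median difference being 0.95. Without 4 that needed low-Acadm libraries to pass the filter, 8 of 16 were higher. Fosl1, a partner of Jun, ran from 2.28 to 8.98 FPKM (median 4.0) in the low-Acadm libraries, was at 0.29, 0.07, 0.07 and 0.33 FPKM in the high-Acadm libraries, and was at or below 0.13 FPKM in all sham libraries, 4 of which were listed at 0. Of 20 unfolded protein and stress genes, 11 were higher, 1 was lower, and 11 lay above the sham range in all 12 MI libraries. Atf3, a stress-induced transcription factor, was at 12.5 to 24.6 FPKM in the low-Acadm libraries, 4.23 to 6.20 FPKM in the high-Acadm libraries and 1.26 to 3.22 FPKM in the sham libraries. Calr, the chaperone calreticulin, lay above the sham range on both sides while the sides overlapped, with 425 to 614 FPKM in the low-Acadm libraries, 378 to 472 FPKM in the high-Acadm libraries and 245 to 318 FPKM in the sham libraries.

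Of 25 ribosomal protein genes, 19 were higher in all low-Acadm libraries and all 25 rose in MI against sham, 15 with DCA alone. The difference was small, with a median of 0.53. Rpl3 differed more than the others, ranging from 368 to 532 FPKM (median 474) in the low-Acadm libraries, against 244, 220.5, 217 and 219.5 FPKM in the high-Acadm libraries and 153 to 178 FPKM (median 161) in the sham libraries. Ribosomal protein genes have many near-identical pseudogenes, and how the authors' counting shared reads among them is not given, so their levels are uncertain. In glycolysis and the response to low oxygen, 9 of 25 genes were higher and 3 lower. Slc16a3, the lactate exporter of glycolytic cells, was measured at 20.3 to 65.99 FPKM (median 27.3) on the low-Acadm side and at 6.30, 4.70, 5.31 and 6.19 FPKM on the high-Acadm side, with 1.37 to 3.12 FPKM (median 2.07) in the sham hearts. Slc2a1, the glucose transporter GLUT1, was at 33.1 to 74.1 FPKM in the low-Acadm libraries, 10 to 12.1 FPKM in the high-Acadm libraries and 7.33 to 10.5 FPKM in the sham libraries. Gapdh, the most abundant member, overlapped and did not pass in MI against sham (limma adjusted p = 0.941).

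Of 26 matrix genes, 12 were higher and 1 lower in the low-Acadm libraries, and 21 rose in MI against sham, 12 with DCA alone. Ctgf, a matricellular growth factor ligand, reached 566 FPKM in the median low-Acadm library (lowest 249, highest 651), 47.7, 41.5, 49.7 and 61.8 FPKM in the high-Acadm libraries and 41.8 FPKM in the median sham library (lowest 27.5, highest 62.7). All 4 high-Acadm values were inside the sham range. Ctgf rose in MI against sham (log2 fold change 2.42 ± 0.63 SE, limma adjusted p = 0.0051), a call lost with MI hearts given DCA alone (limma adjusted p = 0.0624). Timp1, an inhibitor of matrix metalloproteinases, spanned 180.4 to 686 FPKM around a median of 339.7 in the 8 low-Acadm libraries, against 74.4, 50.6, 74.1 and 81.7 FPKM in the 4 high-Acadm libraries and 14.8 to 27.2 FPKM (median 21.4) in sham. In contrast to Ctgf, Timp1 was above the sham range in all 12 MI libraries. Spp1, osteopontin, was measured at 100.5 to 537 FPKM (median 323) on the low-Acadm side and at 107, 44.1, 84.1 and 92.95 FPKM on the high-Acadm side, with 2.04 to 28.5 FPKM (median 12.5) in the sham hearts. It overlapped through DCA replicate 4 alone, whose 100.5 FPKM lay below the 107 FPKM of DCA replicate 5. Col1a1, a fibrillar collagen, ran from 78.3 to 286 FPKM (median 156) in the low-Acadm libraries, was at 147, 104, 109.8 and 109 FPKM in the high-Acadm libraries, and did not pass in MI against sham (limma adjusted p = 0.094).

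Resting fibroblast genes were lower: 10 of 19 in all low-Acadm libraries, with 1 higher and a median difference of -1.14, which was -0.63 within vehicle alone and -1.44 within DCA alone. The median against sham was -1.23 in the low-Acadm and -0.09 in the high-Acadm libraries, and 13 fell in MI against sham. Mfap5, a microfibril protein, went the other way within the list, with 25.6 to 83.6 FPKM in the low-Acadm libraries and 27.5 to 47.1 FPKM in the high-Acadm libraries overlapping and a rise in MI against sham (limma adjusted p = 0.00402). Of 21 endothelial genes, 5 were lower and 0 higher, with a median difference of -0.18. That median was -0.30 after median-ratio scaling, -0.113 without DCA replicate 1 and -0.095 with the threshold at 300 FPKM. The mean of the list was at 5.47 to 5.67 in the low-Acadm and 5.81 to 5.96 in the high-Acadm libraries, without overlap. Aqp1, a water channel of endothelium, was at 63.4 to 109 FPKM in the low-Acadm libraries against 200.0 to 227 FPKM in the high-Acadm libraries. Smooth muscle and pericyte genes were split, 4 higher and 4 lower of 16. Cnn1, calponin, which the cardiac stress list also holds, was at 11.1 to 37.6 FPKM in the low-Acadm libraries against 2.96 to 9.51 FPKM in the high-Acadm libraries.

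Summed levels of several marker lists moved with the split, and their part in the results above was not tested. The endothelial list summed to 1984 to 2735 FPKM in the low-Acadm, 2927 to 3490.0 FPKM in the high-Acadm and 2491 to 4056 FPKM in the sham libraries. The resting fibroblast list summed to 487 to 967 FPKM in the low-Acadm, 1243 to 1403 FPKM in the high-Acadm and 1509 to 1821 FPKM in the sham libraries. The 8 adipocyte markers summed to 12.84 to 31.97 FPKM in the low-Acadm, 36.1 to 40.5 FPKM in the high-Acadm and 32.3 to 38.8 FPKM in the sham libraries. Only 1 of them, Cidea, passed the filter, so this sum stands mainly for 1 gene. Without overlap in the other direction, the 8 epicardial markers, of which 3 passed the filter, summed to 38.1 to 76.6 FPKM in the low-Acadm, 14.9 to 25.8 FPKM in the high-Acadm and 12.5 to 45.4 FPKM in the sham libraries. The smooth muscle and pericyte list, which includes the sarcomere gene Des, summed to 2454 to 4426 FPKM in the low-Acadm, 1667 to 2142 FPKM in the high-Acadm and 1631 to 1835 FPKM in the sham libraries. Des, whose values are given above, made up most of this sum in the low-Acadm libraries. By gene, 4 of its 16 were higher and 4 lower across the split, with a median difference of -0.16. Schwann and neuronal markers summed to 34.8 to 54.2 FPKM in the low-Acadm, 21.8 to 30.4 FPKM in the high-Acadm and 17.0 to 26.9 FPKM in the sham libraries. Of their 7 genes past the filter, only Uchl1 (1.53) was higher across the split and 0 were lower, and the median difference was -0.41. The atrial and conduction list, which holds Nppa, summed to 2539 to 7052 FPKM in the low-Acadm, 401 to 796 FPKM in the high-Acadm and 165 to 465 FPKM in the sham libraries. This sum is nearly all Nppa, whose values are given above. Of the 5 genes of the list past the filter, 1 was higher and 2 lower across the split, with a median difference of 0.03. The sums of the next 2 lists overlapped across the split. Lymphocyte and natural killer cell markers, of which 4 of 14 passed the filter, summed to 4.14 to 9.68 FPKM in the low-Acadm, 2.98 to 7.52 FPKM in the high-Acadm and 3.99 to 5.55 FPKM in the sham libraries. Skeletal muscle markers summed to 1009 to 2633 FPKM in the low-Acadm, 1620.0 to 2664 FPKM in the high-Acadm and 1448 to 2377 FPKM in the sham libraries. That list holds Ckm and Acta1, which heart muscle also expresses. Of its 6 genes past the filter, 1 was higher and 1 lower across the split, with a median difference of -0.29. The lower one was Ckm (-0.89). The higher one was Tnnt3, a fast muscle troponin, which needed low-Acadm libraries to pass the filter. It was at 1.28 to 11.5 FPKM in the low-Acadm libraries against 0.36 to 1.09 FPKM in the high-Acadm libraries.

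Most markers of monocytes and neutrophils rose in MI against sham. Of 24 monocyte and macrophage genes, 21 rose in MI against sham and 14 lay above the sham range in all 12 MI libraries, and 4 were higher in all low-Acadm than in all high-Acadm libraries, beside 18.3% of all genes. The median difference was 0.94, and the median against sham was 1.80 in the low-Acadm and 0.94 in the high-Acadm libraries. Arg1, an arginase of wound macrophages, reached 45.5 FPKM in the median low-Acadm library (lowest 20.8, highest 122), 16.3, 5.15, 13.1 and 15.9 FPKM in the high-Acadm libraries and 2.76 FPKM in the median sham library (lowest 0.95, highest 5.50). Ly6c2, a surface protein of inflammatory monocytes, had 11.3 to 77.7 FPKM (median 26.3) in the low-Acadm libraries, 28.8, 18.1, 23.3 and 26.5 FPKM in the high-Acadm libraries and 0.55 to 2.84 FPKM (median 1.57) in the sham libraries. The high-Acadm values of Ly6c2 lay inside the low-Acadm range, and all 12 were above sham (MI against sham log2 fold change 3.50 ± 0.33 SE, limma adjusted p = 1.17e-05). Lyz2, lysozyme, overlapped and did not pass in MI against sham (adjusted p = 0.118). Of 15 resident macrophage genes, 5 were lower and 0 higher across the split, and in MI against sham 1 rose and 2 fell. Timd4, a receptor of resident macrophages, was at 0.22 to 0.79 FPKM in the low-Acadm libraries against 1.24 to 2.99 FPKM in the high-Acadm libraries, close to the filter.

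Of 23 neutrophil genes, 16 passed the filter and all 16 rose in MI against sham. Across the split 2 were higher and 1 lower, beside 18.3% and 13.8% of all genes. Without 5 that needed low-Acadm libraries to pass the filter, 1 of 11 was higher and 1 lower, beside 18.2% and 14.4% of all genes after the same exclusion. S100a9, a calcium-binding protein that neutrophils carry in bulk, spanned 17.7 to 160.1 FPKM around a median of 65.5 in the 8 low-Acadm libraries, against 30.3, 15.6, 22.9 and 36.1 FPKM in the 4 high-Acadm libraries and 1.73 to 12.6 FPKM (median 4.68) in sham. Its low-Acadm libraries spanned a wide range that took in the high-Acadm ones. Il1r2, the decoy receptor for interleukin 1, did separate the sides, with 3.94 to 15.1 FPKM in the low-Acadm libraries against 2.17 to 3.55 FPKM in the high-Acadm libraries. Of 23 cytokine and chemokine genes past the filter, 19 rose in MI against sham and 6 were higher across the split, beside 18.3% of all genes. Without 6 that needed low-Acadm libraries to pass the filter, 4 of 17 were higher, beside 18.2% of all genes after the same exclusion. Ccl2, which attracts monocytes, was measured at 36.9 to 111 FPKM (median 87.99) on the low-Acadm side and at 29.9, 23.7, 29.3 and 32.7 FPKM on the high-Acadm side, with 1.71 to 9.77 FPKM (median 6.67) in the sham hearts. Il1b, interleukin 1 beta, reached 12.4 FPKM in the median low-Acadm library (lowest 3.53, highest 34.03), 5.42, 2.90, 6.02 and 8.47 FPKM in the high-Acadm libraries and 0.99 FPKM in the median sham library (lowest 0.64, highest 1.39). Il6, interleukin 6, overlapped, with 2.01 to 14.1 FPKM in the low-Acadm libraries, 0.45 to 2.45 FPKM in the high-Acadm libraries and 0.09 to 0.30 FPKM in the sham libraries. All 3 rose in MI against sham, Ccl2 by 3.10 ± 0.35, Il1b by 2.33 ± 0.34 and Il6 by 1.69 ± 0.34 (log2 fold change ± SE, limma adjusted p = 2.71e-05, 0.000184 and 0.00121).

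Without DCA replicate 4, genes higher in all low-Acadm libraries numbered 14 of 24 in the monocyte list, 10 of 23 in the cytokine list, 12 of 23 in the cell cycle list and 3 of 16 in the neutrophil list, whose mean still overlapped. Over all 12461 genes the count of higher genes rose too, from 2286 to 2995. DCA replicate 4, the low-Acadm library nearest the threshold, was the second lowest of the 12 in the mean level of the monocyte, neutrophil and cytokine lists and the lowest in the cell cycle list. It ranked 7 from the lowest in the cardiac stress list and was the highest in the sarcomere list. By Spp1, Arg1, Il1b and S100a9 it was close to the high-Acadm libraries, and by Ankrd1, Nppb and Nmrk2 it was among the other low-Acadm ones. Of 23 cell cycle genes past the filter, 4 were higher with DCA replicate 4 included, beside 18.3% of all genes. Among them was Mcm5, a part of the replicative helicase, at 3.98 to 10.5 FPKM in the low-Acadm libraries against 3.01 to 3.36 FPKM in the high-Acadm libraries.

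**Figure D4:**
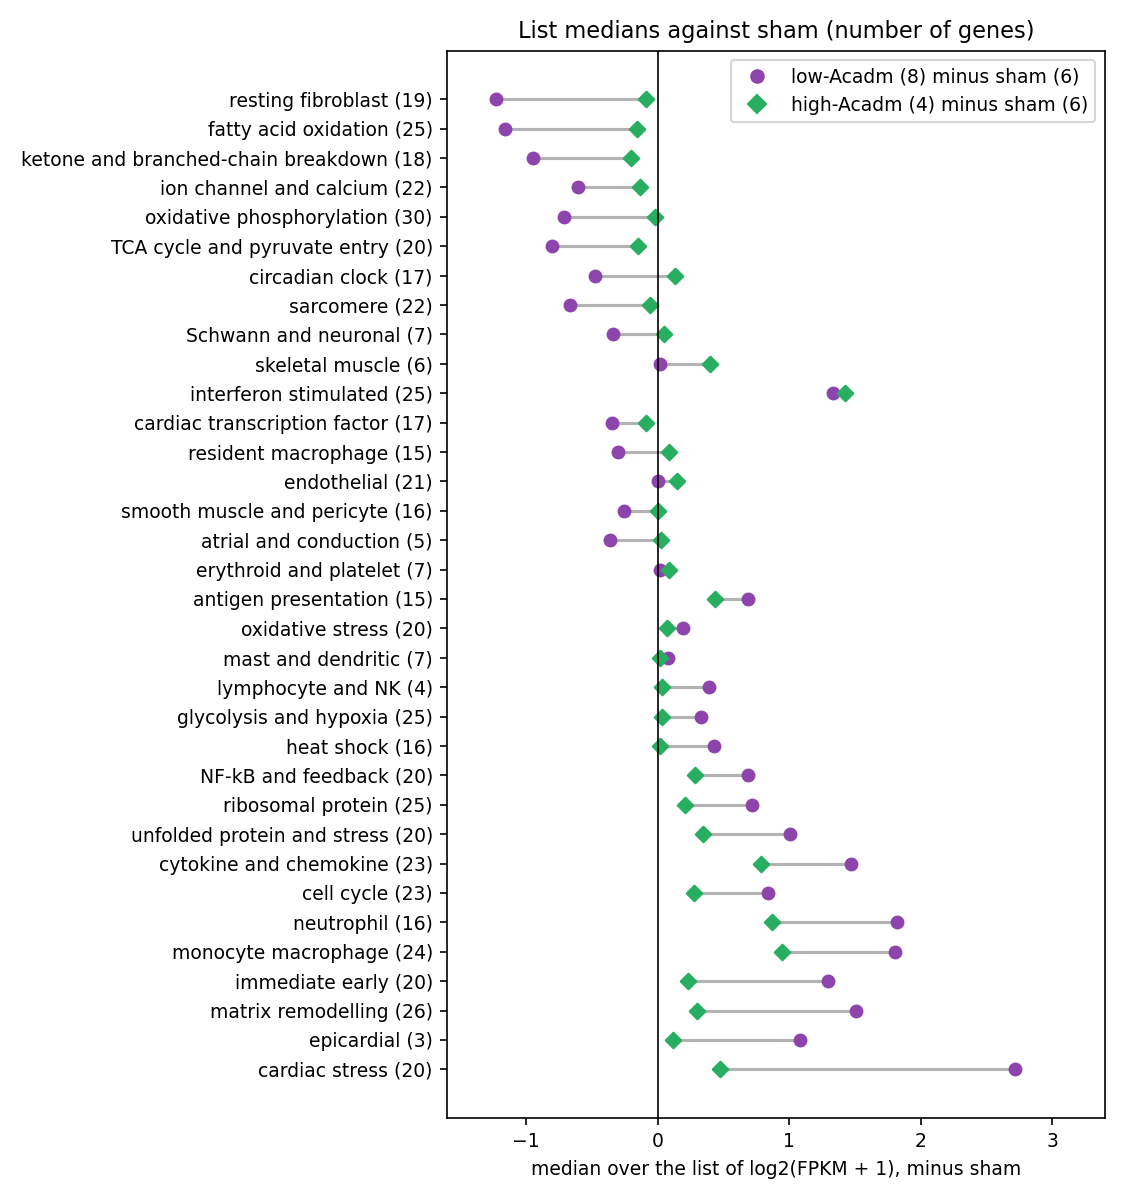
Median over each gene list of log2(FPKM + 1) minus sham, for the low-Acadm libraries (circles) and the high-Acadm libraries (diamonds), with the number of genes past the filter in brackets; the grey line joins the 2 medians of a list. The interferon-stimulated list stands at 1.33 in the low-Acadm and 1.43 in the high-Acadm libraries, while the cardiac stress list stands at 2.72 and 0.47.

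Interferon-stimulated genes did not follow Acadm. Of the 25, 21 rose in MI against sham, and 0 were higher and 1 lower in all low-Acadm libraries. All 4 high-Acadm libraries were above the sham range in 24 of the 25 genes, and all 12 MI libraries in 13. The median difference was -0.28, and -0.175 with the threshold at 300 FPKM. By the mean level of the list, 2 low-Acadm libraries were the extremes of the 12: DCA replicate 6 was lowest and DCA replicate 2 highest. Isg15, a ubiquitin-like protein (GRCm38.p6 chromosome 4, 156199424 to 156200818), had 15.6 to 56.7 FPKM (median 35.5) in the low-Acadm libraries, 33.9, 36.1, 25.02 and 30.5 FPKM in the high-Acadm libraries and 5.47 to 10.99 FPKM (median 6.79) in the sham libraries. The 4 high-Acadm values lay in the middle of the low-Acadm range. Oasl2, of the family of sensors of double-stranded RNA, spanned 20.9 to 84.6 FPKM around a median of 58.5 in the 8 low-Acadm libraries, against 60.2, 63.3, 44.7 and 46.3 FPKM in the 4 high-Acadm libraries and 10.6 to 19.6 FPKM (median 14.6) in sham. Both rose in MI against sham (log2 fold change 2.07 ± 0.21 and 1.81 ± 0.22 SE, limma adjusted p = 1.34e-05 and 5.85e-05).

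Cxcl10, a chemokine that interferon induces, stood apart within that list. It was measured at 5.93 to 16.1 FPKM (median 9.46) on the low-Acadm side and at 3.74, 2.96, 1.78 and 6.87 FPKM on the high-Acadm side, with 0.18 to 0.85 FPKM (median 0.59) in the sham hearts. Its difference, 1.27, was the largest of the 25, and it overlapped through DCA replicate 6 at 5.93 FPKM and vehicle replicate 4 at 6.87 FPKM. Ifi203, an interferon-inducible DNA-binding protein, was the member that was lower, at 15.02 to 31.5 FPKM in the low-Acadm libraries against 31.5 to 35.8 FPKM in the high-Acadm libraries, and the nearest libraries of the 2 sides had 31.47 and 31.48 FPKM. Ifitm3, a membrane protein that hinders virus entry, was alike, with medians of 548 FPKM in the low-Acadm, 539 FPKM in the high-Acadm and 216 FPKM in the sham libraries.

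Of all 6141 genes averaging at least 10 FPKM in MI, in the lists or not, 48 rose, lay above the sham range in all 12 MI libraries, overlapped across the split and differed by less than 0.25. Being alike on both sides was thus a condition of the choice. The 8 with the largest rise were Ly6c2, Zbp1, Ptx3, Isg15, Oasl2, Oas1a, Slfn2 and Rtp4. Zbp1, Isg15, Oasl2 and Oas1a are members of the interferon-stimulated list, and Ly6c2 is a member of the monocyte list. Within DCA alone Ly6c2 differed by -0.52, and within vehicle alone by 0.19. Ptx3, a soluble pattern recognition protein, reached 8.99 FPKM in the median low-Acadm library (lowest 4.62, highest 22.1), 10.8, 10.2, 13.1 and 10.2 FPKM in the high-Acadm libraries and 1.56 FPKM in the median sham library (lowest 0.65, highest 2.59). Slfn2, a schlafen protein of immune cells, had 20.01 to 41.9 FPKM (median 30.9) in the low-Acadm libraries, 27.2, 25.4, 23.7 and 27 FPKM in the high-Acadm libraries and 7.12 to 10.7 FPKM (median 8.89) in the sham libraries, the narrowest spread of the 8 in its fold change (1.59 ± 0.12 SE, limma adjusted p = 1.49e-06). In the other direction there were 11 such genes. Mavs, the mitochondrial adaptor of RNA sensors, was at 16.7 to 26.1 FPKM in the low-Acadm libraries, 25.3 to 28.2 FPKM in the high-Acadm libraries and 29.1 to 37.1 FPKM in the sham libraries, and fell in MI against sham (log2 fold change -0.51 ± 0.08 SE, limma adjusted p = 0.000257). Entpd4b, Tmem60, Slc30a9, Faf1, Mzt1, Bsdc1 and Limch1 were the other 7 with the largest falls, from -0.57 ± 0.11 for Entpd4b to -0.30 ± 0.07 for Limch1.

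**Figure D5:**
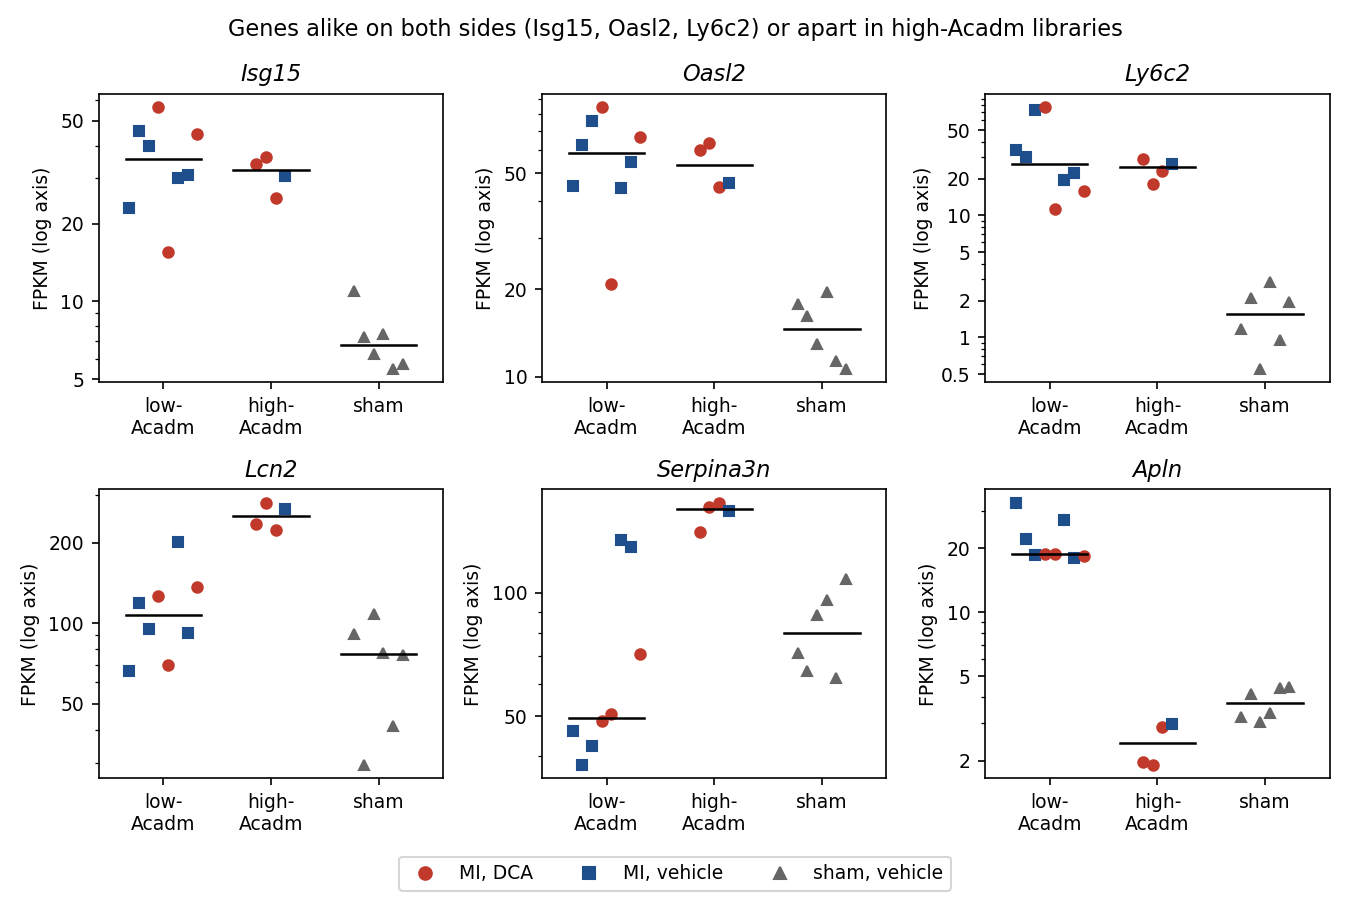
FPKM on a log axis for Isg15, Oasl2 and Ly6c2, alike on both sides of the split, and for Lcn2, Serpina3n and Apln, in which the high-Acadm libraries stand apart; each point is 1 library, colour and shape give the labelled group, and the line is the median of each column. The high-Acadm libraries are above both other columns for Lcn2 and Serpina3n, at 141 to 282 FPKM, and below both for Apln, at 1.91 to 2.99 FPKM.

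A smaller set stood apart in the high-Acadm libraries. Among 6435 genes averaging at least 10 FPKM in MI or in sham, 19 were higher in all 4 high-Acadm libraries than in every sham and every low-Acadm library, and 5 were lower. Lcn2, lipocalin 2, which binds bacterial siderophores and is made by neutrophils and by stressed tissue (GRCm38.p6 chromosome 2, 32384637 to 32387739), spanned 66.2 to 201 FPKM around a median of 107 in the 8 low-Acadm libraries, against 234, 282, 223 and 268 FPKM in the 4 high-Acadm libraries and 29.5 to 108 FPKM (median 76.7) in sham. It was the 1 neutrophil gene lower across the split. Serpina3n, an acute-phase protease inhibitor, was measured at 37.95 to 134 FPKM (median 49.5) on the low-Acadm side and at 141, 163, 166 and 158 FPKM on the high-Acadm side, with 61.9 to 108 FPKM (median 79.7) in the sham hearts. Vehicle replicates 3 and 5, with 134 and 130 FPKM, were close to the high-Acadm libraries, while the 5 libraries with the least Acadm had 38.0 to 50.5 FPKM, below all sham libraries. Lrg1, an acute-phase glycoprotein, had the same order, with 40.6 to 112 FPKM in the low-Acadm libraries, 153 to 192 FPKM in the high-Acadm libraries and 77.4 to 111 FPKM in the sham libraries.

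In the labelled comparison Serpina3n and Lrg1 did not pass (MI against sham, limma adjusted p = 0.849 and 0.824). Lcn2 did (log2 fold change 1.13 ± 0.34 SE, adjusted p = 0.0108). Iigp1, an interferon-induced GTPase, was at 10.9 to 67.8 FPKM in the low-Acadm libraries, 80.1 to 91.1 FPKM in the high-Acadm libraries and 22.98 to 37.04 FPKM in the sham libraries. H2-T24, a non-classical class I molecule, was at 5.83 to 12.8 FPKM in the low-Acadm libraries, 15.5 to 19.2 FPKM in the high-Acadm libraries and 5.91 to 9.59 FPKM in the sham libraries, and its reads may be shared with related class I genes. In the other direction Apln, which encodes the vasoactive peptide apelin, reached 18.8 FPKM in the median low-Acadm library (lowest 18.04, highest 32.7), 1.98, 1.91, 2.89 and 2.99 FPKM in the high-Acadm libraries and 3.76 FPKM in the median sham library (lowest 3.05, highest 4.45). The 4 others lower in the high-Acadm libraries, Picalm, Mbnl2, Fyttd1 and Cops2, differed from sham by -0.28, -0.26, -0.13 and -0.10. Picalm, a clathrin assembly protein, was at 101 to 163 FPKM in the low-Acadm libraries, 54.5 to 57.5 FPKM in the high-Acadm libraries and 58.5 to 73.1 FPKM in the sham libraries.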

How the data were processed

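Apex RNA of 18 hearts was sequenced as single reads of 50 bases; replicates are the 6 libraries of each labelled group. Gene values are FPKM deposited by the authors, 1 file per library, with no counts. The header does not name the unit, which was read from the values: summed FPKM differed between libraries by a coefficient of variation of 3.09%, and FPKM times transcript length by 0.71%. Per the submitters' processing notes, Bowtie2 2.2.5, RSEM 1.2.12, DESeq2 1.4.5 and GRCm38.p6 were used; the role of each is not given in the sources used here. Symbols and coordinates of 19051 gene IDs (99.2%) came from a RefSeq table of that build, and 26 symbols that had become dates were restored by ID.

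Genes with at least 1 FPKM in at least 4 libraries were kept. MI against sham was tested with limma 3.58.1 in R 4.3.3 (trend, Benjamini-Hochberg adjustment, threshold 0.05) on log2(FPKM + 1), a scale that understates changes of low genes, with the mean of both MI groups against sham; the script was tested on simulated data. Low-Acadm against high-Acadm has no test: differences are medians of log2(FPKM + 1), low minus high, and a gene is higher or lower where the 8 and 4 values do not overlap. A list score is the mean log2(FPKM + 1) of its genes past the filter. FPKM without counts gives no counting interval; depth was estimated from the steps between low FPKM values of genes with 1 short transcript.

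The split, the gene lists and the tests were chosen with earlier results of these data known. Genes to name were chosen by a rule. It took 16 fixed genes, the 8 largest differences each way, and 2 genes without and 1 with overlap per list. It also took the 8 largest rises and falls among genes alike on both sides. Last came the 5 largest each way that stand apart in high-Acadm libraries. Not every gene chosen per list is named above. Some lists, among them NF-kB, oxidative stress, and mast and dendritic cells, are not described. Other list members are named to explain an overlap. A gene that this rule names in the matrix list is not reported here. Same-numbered libraries of different groups did not deviate together in a way that pairs them: correlations of deviations ran from -0.43 to 0.68, with 6 of 18 over 0.1. Alternatives were other pseudocounts, no filter, median-ratio scaling, quantile normalization, a replicate block, single treatments, other thresholds and leaving out each MI library; added after the data were seen were leaving out both libraries nearest the threshold, genes that passed the filter through low-Acadm libraries, or Acadm from its list, and list counts with DCA alone or without DCA replicate 4.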

Additional observations from a re-analysis of the deposited data

Results flagged for a closer look

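For Acadm, the fixed genes and the list scores, each labelled group of 6 was searched for a library far from the other 5, by the gap to its nearest neighbour over the range of the group. Of 147 such searches, 7 stood out (4.76%), about the 1 in 20 that chance gives. All values are on the log2(FPKM + 1) scale.

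Among MI hearts given vehicle, replicate 4, the 1 vehicle library on the high-Acadm side, stood apart in Ankrd1, at 11.30 against 12.24 to 12.54 in the other 5. The same library was apart in the mean of the heat shock list, at 6.63 against 7.06 to 7.28.

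Among MI hearts given DCA, replicate 2, a low-Acadm library, stood apart in the mean of 4 lymphocyte and natural killer cell genes, at 1.15 against 0.43 to 0.66, and in the mean of 6 skeletal muscle genes, at 5.40 against 4.74 to 4.93.

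Among sham hearts, replicate 1 stood apart in Myh6, at 11.98 against 12.11 to 12.19, and in the electron transport and ATP synthase list, at 10.01 against 9.76 to 9.81. Sham replicate 5 stood apart in the cytokine and chemokine list, at 1.45 against 1.92 to 2.15.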

How the results depend on the processing

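Acadm in DCA against vehicle kept its direction and did not pass under any of the 5 alternatives run. The replicate block gave the difference of 0.52 with p = 0.0938 by a two-sided exact sign-flip test, and 4398 rises and 2387 falls in MI against sham, although the numbers do not pair the libraries. With 300 or 500 FPKM as threshold, Fisher's exact test of treatment against side gave p = 0.567 and 1. MI hearts given DCA alone against sham gave 1936 rises and 998 falls, and those given vehicle alone gave 4827 and 2468. Quantile normalization gave 3558 falls. The cause of these shifts was not tested. For the split, a threshold of 300 FPKM left 1469 higher and 512 lower genes without overlap, and 500 FPKM left 1041 and 687. With fewer libraries there is more room not to overlap: within vehicle alone there were 5228 higher and 3009 lower, within DCA alone 3194 and 3520 (47.6% higher), and without 1 MI library 2307 to 2995 higher and 1746 to 2063 lower. Without both libraries nearest the threshold there were 3361 and 1977, and the medians of the atrial and erythroid lists were 0.191 and 0.263. Median-ratio scaling gave 2064 higher and 2022 lower, quantile normalization 1995 and 2175, where the deposited values gave 57.1% higher. Of the recomputed list medians, 19 changed sign. Antigen presentation turned to -0.049 within vehicle and -0.19 within DCA, smooth muscle and pericyte to 0.28 within vehicle, lymphocyte and natural killer to -0.01 within DCA, and Schwann and neuronal to 0.14 within vehicle. Erythroid and platelet turned to -0.87 within vehicle and to -0.15 without vehicle replicate 3, vehicle replicate 6 or DCA replicate 2. Atrial and conduction turned to -0.015 under median-ratio scaling, -0.013 under quantile normalization, -0.083 within vehicle, -0.123 within DCA, -0.077 without vehicle replicates 2, 5 or 6 or DCA replicate 2, and -0.088 without DCA replicates 1 or 3. Among differences of named genes, those that changed sign all overlapped: Tpm1, Gapdh, Ifitm3, B2m, Hspb6 and Ly6c2 under a scaling, and within 1 treatment Acta1 (-1.05 within vehicle), Hba-a1 (-1.81 within vehicle), Gzma, Nfkbia, Nkx2-5, C1qb, Ube2c, Wt1, Slfn2, Rtp4, Entpd4b, Ifitm3, B2m, Hspb6 and Ly6c2. Among recomputed MI against sham tests of named genes, 48 lost and 16 gained the call, most of the losses with DCA hearts alone. Depth moved with the split, and no counts were at hand to thin.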
